A study of Macaca mulatta with 25 samples.

Results

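The genes described here encode matrix metalloproteinases (MMPs), ADAM and ADAMTS proteases with the related ADAMTS-like proteins, and serpins, in the cervix of rhesus macaques. They were chosen by symbol alone: a probe set listed for 1 gene whose symbol starts with MMP and a digit, ADAM and a digit, ADAMTS or SERPIN, without SERPINA3 and SERPINH1. This gave 86 of the 15534 genes measured: 20 MMPs, 16 ADAMs, 22 ADAMTS and ADAMTSL genes and 28 serpins. Where a gene had several probe sets, the one brightest on average across the 25 arrays stood for it. Among these 86 genes only ADAMTSL1 had a second probe set.

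The animals were 25 ovariectomized macaques, each carrying an estrogen implant under the skin and, in 4 of the 5 groups, an added progesterone implant, so that hormones came from the implants and not from ovaries. The E2 group received estradiol alone for 14 days. Progesterone was added for 1 day in E+1P, 3 days in E+3P, 7 days in E+7P and 14 days in E+14P, and for these 4 groups the sources used here do not state the days of estradiol. Each group held 5 animals with 1 array each by the labels, whereas the design text of the series counts the collected tracts differently. RNA came from whole frozen cervix, so a lower signal can mean fewer cells of a type or less RNA per cell, and these cannot be told apart.

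Remodelling of the cervix depends on proteases and their inhibitors. MMPs are zinc proteases that cut collagens, gelatins and other matrix proteins. ADAMs are membrane proteins, several of which release growth factors and receptors from the cell surface, while secreted ADAMTS enzymes cut large proteoglycans such as versican and aggrecan or trim procollagens. Most serpins trap a serine protease in an irreversible complex. Those of clade B act largely inside cells, and most of the others are secreted, many of them being known as plasma inhibitors made by the liver.

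Values are log2 signals, a mean is given with its SD over the 5 animals of a group, and a difference is the log2 difference between group means, with the standard error (SE) of the limma fit. A gene is called when its limma p, adjusted over all 40489 probe sets, is under 0.05. A pair of known progestin response genes served as a check of the groups. FKBP5, a glucocorticoid and progestin target, averaged 8.06 ± 0.11 in E+1P against 5.68 ± 0.37 in E2 (adjusted p = 1.99e-06). PGR, the progesterone receptor, averaged 9.65 ± 0.25 in E+1P against 10.75 ± 0.19 in E2 (adjusted p = 0.00295). Array medians lay between 5.502 and 5.604, and 44 of the 86 genes had a mean signal at or above the 40th percentile of all probe sets. No detection calls were at hand, so signal over background is unknown, the number of arrays limits the precision, and levels of different genes are not compared.

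Over the 25 arrays, the mean signal of the columnar epithelium markers ran from 5.29 to 8.11 and that of the smooth muscle markers from 5.81 to 9.13. Replicates 2 and 3 of E+3P and E+14P replicate 4 stood apart in marker genes of the epithelia. Mean signals of the ciliated cell markers were 4.57, 4.70 and 5.03 on these arrays, against group medians between 6.48 in E+3P and 7.36 in E2. E+3P replicate 3 also had the highest squamous epithelium mean, 10.29, and E+3P replicate 2 the lowest columnar mean, 5.29. Replicate 2 of E+3P was also far above the others in endothelial markers, with a mean of 7.38 against 6.26 to 6.79 on the other 24 arrays. Calls in E+3P and E+14P against E2 that ended without these 3 arrays are named as such.

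Between 3 and 10 of the 86 genes were called in each comparison with E2, shares at or below those of all genes. After 1 day, 3 genes were called (3.49%; 2 higher and 1 lower), against 3.55% of all genes (2.09% higher and 1.47% lower). After 3 days there were 10 (11.6%; 7 higher and 3 lower), against 12.2% of all genes (5.03% higher and 7.16% lower). The split of the 10 depended on scaling: 2 higher and 3 lower under quantile normalization, and 3 higher and 3 lower with arrays centred on their medians. After 7 days there were 3 (3.49%; 2 higher and 1 lower), against 5.85% (2.27% and 3.58%). After 14 days there were again 3 (3.49%; 2 higher and 1 lower), against 5.79% (2.26% and 3.53%). A joint F test of the 4 progesterone groups against E2 called 7 of the 86, or 8.14%, against 12% of all genes: SERPINF2, SERPINB6, SERPINA1, SERPING1, ADAM28, ADAMTS5 and MMP14. Shares in the comparisons with E+1P are given further on.

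**Figure D1:**
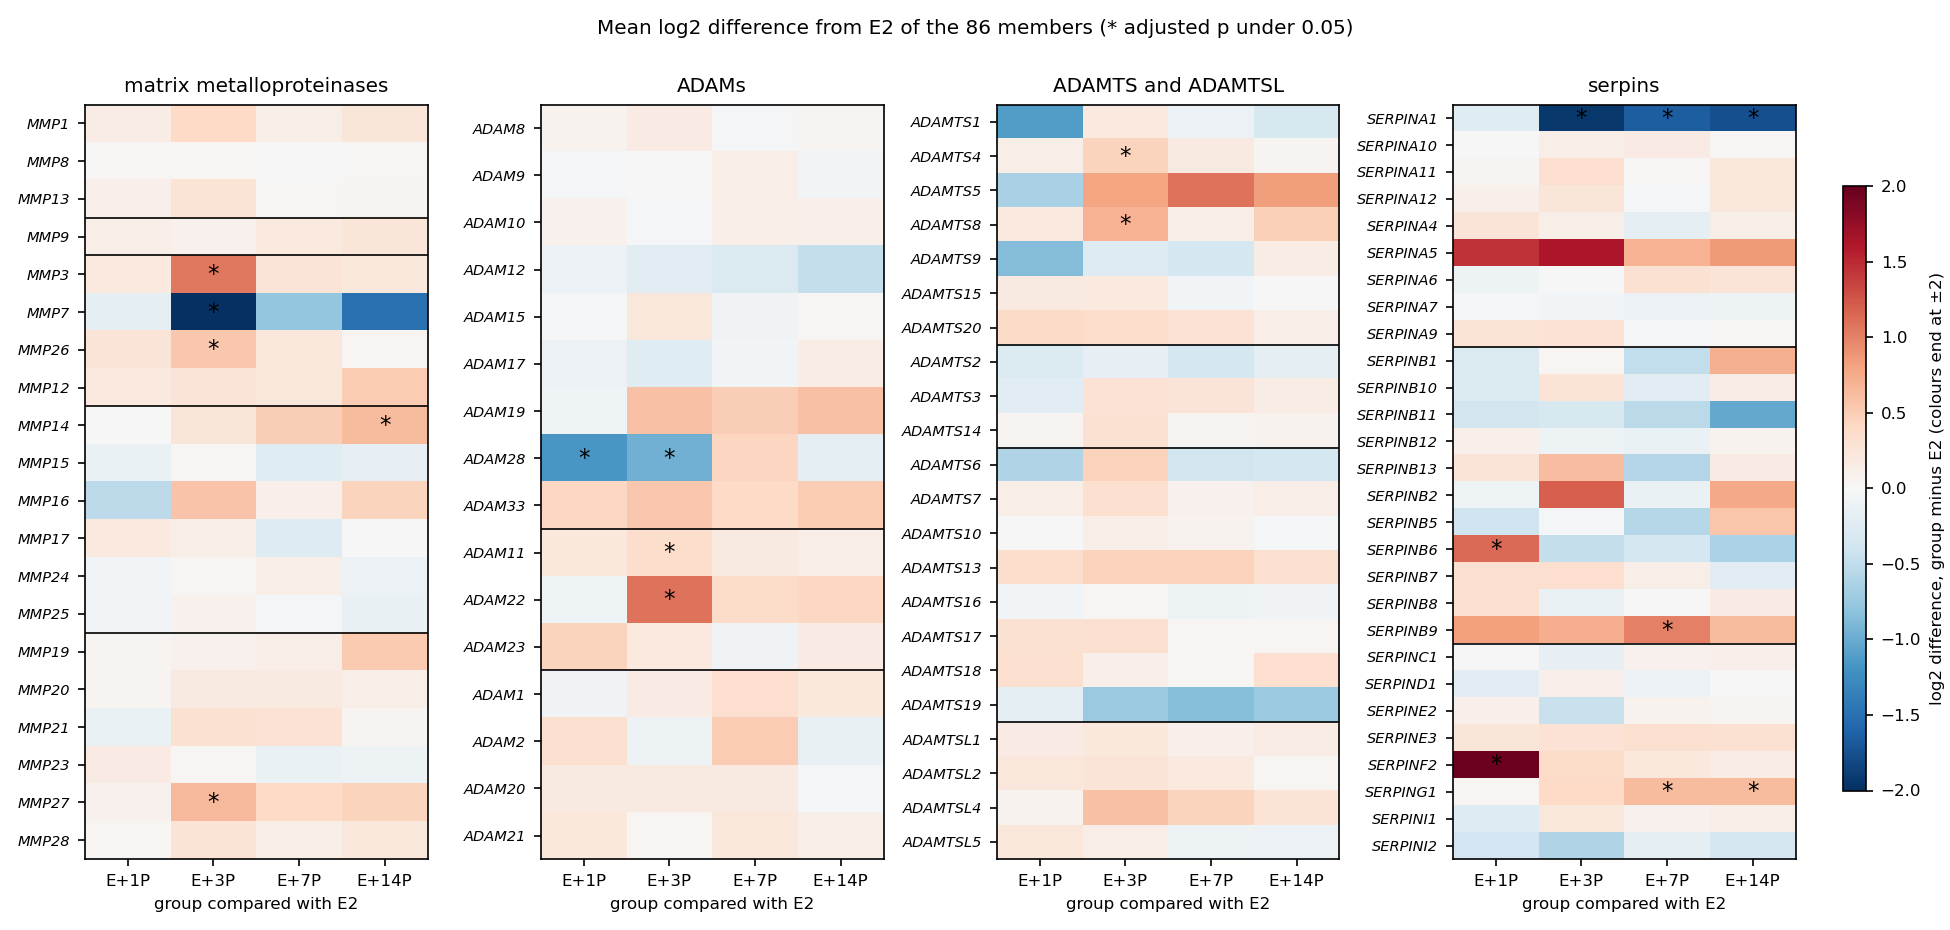
Mean log2 difference from E2 of each of the 86 genes in each progesterone group, in 4 panels by family, with lines between role groups; colours end at ±2 and an asterisk marks an adjusted p under 0.05. Of the genes, 3, 10, 3 and 3 carry an asterisk, and SERPINA1 is the only one that does so in 3 columns.

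Among the secreted serpins, SERPINF2 was called on day 1 and in no other comparison with E2. It encodes alpha-2-antiplasmin, the main inhibitor of plasmin. Its signals were 7.06, 6.91, 7.09, 6.36 and 7.00 in E+1P, against 5.30, 4.37, 4.86, 4.78 and 5.28 in E2. All 5 E+1P animals lay above all E2 animals, a 3.91-fold difference (1.97 on the log2 scale, SE 0.18, adjusted p = 1.99e-06). On day 3 its signals were 5.53, 5.25, 4.99, 5.39 and 5.23, on day 7 they lay between 4.98 and 5.31, and on day 14 between 4.55 and 5.34. Each later group was therefore below every E+1P animal. The differences from E+1P were -1.61 in E+3P (adjusted p = 1.02e-05), -1.76 in E+7P (2.68e-06) and -1.82 in E+14P (1.5e-06), with an SE of 0.18 each. The last comparisons, of E+7P and E+14P with E+1P, were added after values were seen. On day 1, 0 of the 16 columnar, 11 squamous and 10 smooth muscle markers were called against E2, beside 3.55% of all genes. With so few markers to a list, nothing is read from this. KRT5 (1.56), TP63 (1.23), MUC1 (1.09), SPDEF (0.65) and KRT7 (0.48) were above all of E2 in all 5 E+1P animals. AGR2 (-1.22) was below all of E2 in all 5. The rise of SERPINF2 was 1.98 with the means of these 3 lists as covariates. The fibroblast and endometrial stroma means did not overlap between E+1P and E2. The fibroblast mean was 7.84 to 8.86 in E+1P against 8.89 to 9.55 in E2, with 0 of 7 markers called. The endometrial stroma mean was 5.29 to 5.47 against 4.85 to 5.21, with 1 of 6 called, MME, higher by 2.47. Its other markers differed by 0.50 (IGFBP1), 0.02 (HOXA10), -0.04 (WNT4), -0.19 (PRL) and -0.24 (HAND2), none called. The part of these lists in the day 1 results was not tested.

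SERPINA1 went the other way, and later. It encodes alpha-1 antitrypsin, the inhibitor of neutrophil elastase. Its signals in E2 were 9.75, 9.65, 7.72, 8.98 and 9.60, and on day 1 they were 8.67, 9.14, 8.72, 9.23 and 8.73, within the E2 range. On day 3 they were 7.51, 5.90, 7.37, 8.34 and 6.91. SERPINA1 fell by 1.94 relative to E2 at this time, a 3.83-fold difference (SE 0.38, adjusted p = 0.0031), with 4 of 5 animals below every E2 animal. The animal that overlapped did so with E2 replicate 3, whose 7.72 was the lowest E2 value.

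The lower level was also found at the later times. Signals of SERPINA1 were 7.65, 6.92, 7.29, 7.84 and 7.73 on day 7, a difference of -1.66 from E2 (adjusted p = 0.0121), and 7.87, 6.55, 7.43, 7.31 and 7.76 on day 14, a difference of -1.76 (adjusted p = 0.00875). In each of these groups 3 animals lay below all of E2. Against E+1P the differences were -1.69 on day 3 (adjusted p = 0.0118), -1.41 on day 7 (0.0444) and -1.52 on day 14 (0.0249), and all animals of each group were below all E+1P animals. The day 7 call against E+1P was lost on leaving out any 1 of the 10 arrays, with adjusted p up to 0.123, and under quantile normalization. The day 14 call was lost without replicate 2 or 4 of E+14P or replicate 2 or 4 of E+1P, with adjusted p up to 0.0774.

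Some columnar and ciliated epithelial markers were also lower than E2 on days 3, 7 and 14, but most of them were not called. Nor did the ciliated markers follow SERPINA1 within E2. On E2 replicate 3, which had the lowest SERPINA1 signal of that group, the ciliated mean was the highest of the group, 8.02. Of 8 ciliated cell markers, 3, 2 and 3 were called lower than E2 on days 3, 7 and 14, among them CAPS and CCNO at each time. On day 3 the columnar mean ran from 5.29 to 7.77 against 7.28 to 8.03 in E2, and 6 of 16 markers were called, 5 of them lower. On day 7 the range was 7.12 to 7.48 with 1 marker called, lower, and on day 14 it was 6.37 to 7.45 with 3 called, all lower. With the squamous, columnar and smooth muscle means as covariates, the difference of SERPINA1 from E2 was -1.0 on day 3 (adjusted p = 0.0859), -1.15 on day 7 (0.0133) and -1.21 on day 14 (0.0209). Without the 3 arrays that stood apart it was -1.56 on day 3 (adjusted p = 0.0292), while the difference from E+1P, -1.31, was no longer called (0.116). With the covariates, the differences from E+1P were -0.53, -0.67 and -0.74 on days 3, 7 and 14, and none was called (adjusted p from 0.276 to 0.580).

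**Figure D2:**
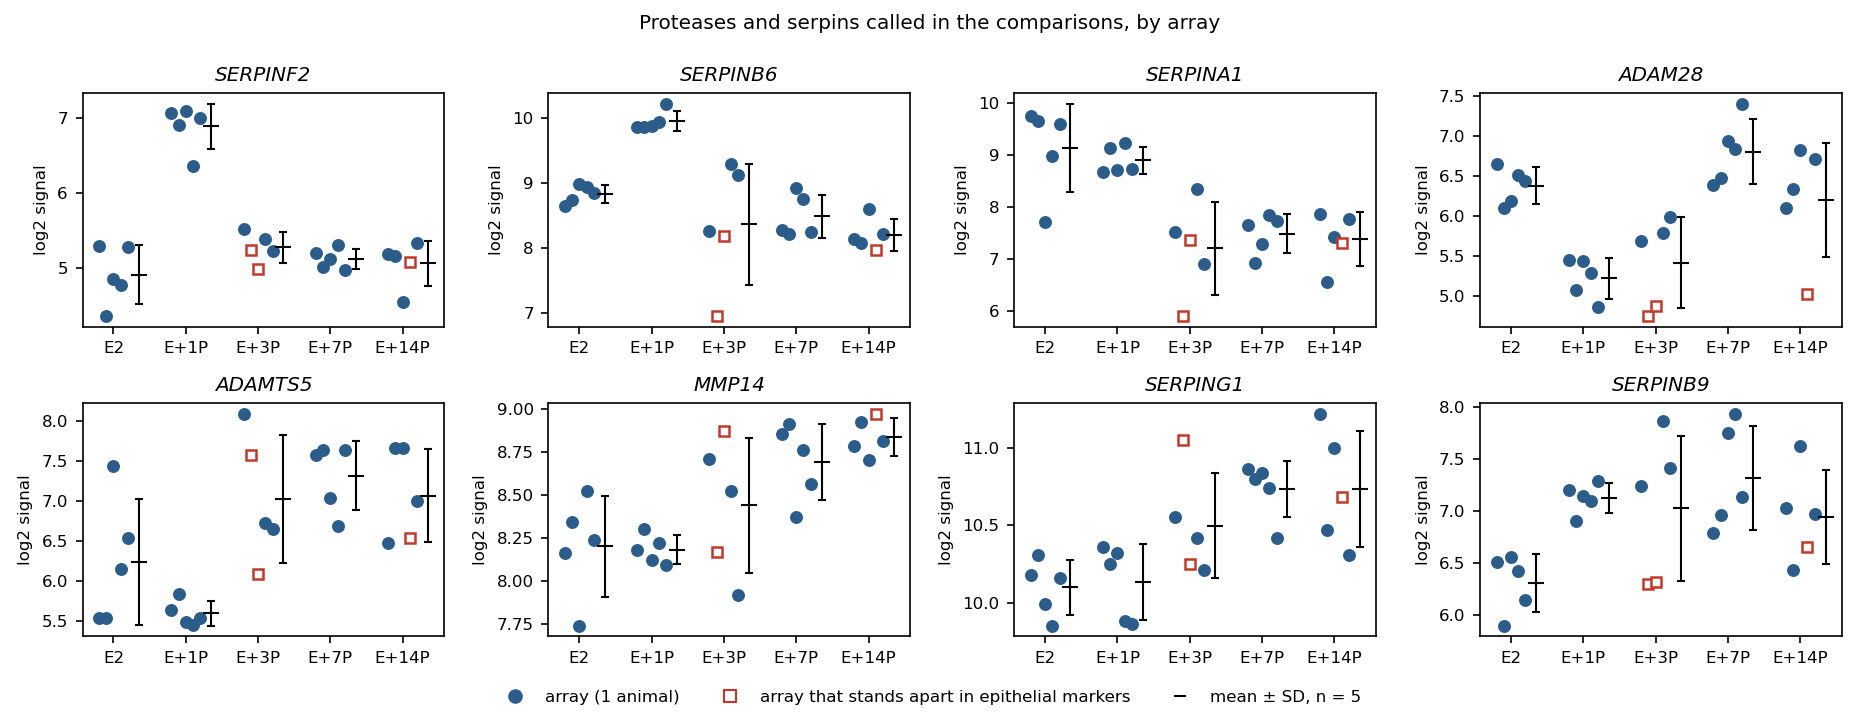
Log2 signal of 8 genes on each array (filled circles, 1 animal each; open squares, arrays that stood apart in epithelial markers) in the 5 groups, with the group mean and SD (n = 5) beside them. SERPINF2 and SERPINB6 stand highest in E+1P, SERPINA1 is lower from E+3P on, and SERPING1 and MMP14 are highest in E+7P and E+14P.

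SERPING1, the C1 inhibitor that controls the first complement component and plasma kallikrein, was higher in E+7P and E+14P than in E2. Its signals were 10.86, 10.80, 10.84, 10.74 and 10.42 in E+7P, against 10.18, 10.31, 9.99, 9.85 and 10.16 in E2. All 5 E+7P animals were above E2, by 0.63 on average (SE 0.17, adjusted p = 0.0300). In E+14P the signals were 11.22, 10.47, 11, 10.68 and 10.31, with a difference of 0.64 from E2 (adjusted p = 0.0321) and of 0.60 from E+1P (0.0468). The difference from E2 was no longer called on day 7 without any of replicates 1 to 4 of E+7P or replicates 3 to 5 of E2 (adjusted p up to 0.0868), nor on day 14 without replicate 1, 3 or 4 of E+14P or replicate 1, 3, 4 or 5 of E2 (up to 0.0898). The call against E+1P was lost without replicate 1, 3 or 4 of E+14P or any E+1P array (up to 0.131). With the squamous, columnar and smooth muscle marker means as covariates, the differences were 0.49 on day 7 (adjusted p = 0.0637) and 0.62 on day 14 (0.0391) from E2, and 0.52 on day 14 from E+1P (0.147). The call against E+1P also ended under quantile normalization, median centring, no variance trend and a fit of these 2 groups, and the day 14 call against E2 under a fit of its 2 groups. The T and natural killer cell mean was 5.64 to 6.59 in E+14P against 4.52 to 5.44 in E2, with 1 of 6 markers called, NKG7, higher. The endometrial stroma mean was 5.39 to 6.06 in E+7P and 5.42 to 5.56 in E+14P, against 4.85 to 5.21 in E2. Of its 6 markers only MME was called, higher by 2.18 on day 7 and by 1.84 on day 14. The part of these lists in the SERPING1 result was not tested.

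The other serpins of clades C to I were not called in any comparison. SERPINE2, or protease nexin 1, which binds thrombin and plasminogen activators, averaged 9.78 ± 0.79 in E2, 9.88 ± 0.10 in E+1P, 9.35 ± 0.50 in E+3P, 9.85 ± 0.40 in E+7P and 9.83 ± 0.66 in E+14P. The thrombin inhibitor SERPIND1, heparin cofactor II, and SERPINE3 had differences from E2 of at most 0.32 in size.

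In clade A, signals of SERPINA5 differed widely between animals of 1 group. SERPINA5, the protein C inhibitor, is a heparin-binding serpin known from blood and seminal plasma. In E2 its signals were 4.8, 5.54, 10.43, 4.86 and 5.54, so 1 animal stood far above the others. In E+1P the 5 animals were close together, at 7.65, 7.75, 7.99, 7.23 and 7.81, above 4 of the 5 E2 animals. In E+3P they scattered again, at 8.16, 5.79, 5.00, 9.98 and 10.33. E+7P lay between 6.64 and 7.25, and E+14P between 6.27 and 9.15. The differences from E2 were 1.45, 1.62, 0.69 and 0.85 in order of time, and none was called (adjusted p from 0.277 to 0.775). Without the 3 arrays that stood apart, the E+3P difference was 3.26 and was called (adjusted p = 0.0417). Without E2 replicate 3 alone it was 2.67 and called (0.0349), and the differences of E+1P, E+7P and E+14P were 2.50, 1.74 and 1.90, none called. That array was picked for its high SERPINA5 value, and its removal lowers the E2 mean. Nothing is read from the call without it. SERPINA4, or kallistatin, an inhibitor of tissue kallikrein, and SERPINA6, which carries cortisol and progesterone in blood, were not called. SERPINA1, SERPINA4, SERPINA5 and SERPINA6 lie in 1 run of 8 neighbouring clade A genes in the rhesus RefSeq annotation, and SERPINA1 was the only one of the 8 called.

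Within clade B, SERPINB6 was called on day 1 and SERPINB9 on day 7. SERPINB6 is an intracellular inhibitor of cathepsin G and trypsin-like proteases. Its signals were 9.87, 9.87, 9.88, 9.94 and 10.22 in E+1P, against 8.65, 8.73, 8.98, 8.93 and 8.85 in E2. The groups did not overlap, with a difference of 1.13, or 2.19-fold (SE 0.28, adjusted p = 0.0276). This call was lost on leaving out any array of these 2 groups but E2 replicate 3, with adjusted p up to 0.0774. The difference itself lay between 1.06 and 1.17 in all 10 of these fits.

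Later, SERPINB6 was below all E+1P animals in every group. Its signals were 8.26, 6.95, 8.18, 9.29 and 9.12 in E+3P, a difference of -1.60 from E+1P (adjusted p = 0.00149), between 8.22 and 8.92 in E+7P (-1.47, adjusted p = 0.00401) and between 7.97 and 8.60 in E+14P (-1.76, adjusted p = 0.000529). The lowest value, 6.95, was on E+3P replicate 2, the array with the lowest columnar marker mean. With the 3 marker means as covariates, the day 3 difference from E+1P was -0.63 (adjusted p = 0.267), and those of days 7 and 14 were -1.0 and -1.08, both called.

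SERPINB9, the inhibitor of granzyme B in cytotoxic lymphocytes and in the cells they meet, had signals of 6.79, 6.97, 7.75, 7.94 and 7.14 in E+7P, against 6.51, 5.90, 6.56, 6.43 and 6.15 in E2. All E+7P animals were above E2, by 1.01 (SE 0.27, adjusted p = 0.0359). On day 1 the animals also lay above E2, between 6.91 and 7.29, but the difference of 0.82 was not called (adjusted p = 0.131). Differences were 0.72 on day 3 (adjusted p = 0.0891) and 0.64 on day 14 (0.223). The mean of the T and natural killer cell markers ran from 5.14 to 6.16 in E+7P against 4.52 to 5.44 in E2. Of these markers, 0 of 6 were called. The endometrial stroma mean was 5.39 to 6.06 in E+7P against 4.85 to 5.21 in E2. The part of either list in the SERPINB9 result was not tested. The day 7 call was lost without replicate 3, 4 or 5 of E+7P or replicate 2, 4 or 5 of E2, with adjusted p up to 0.105.

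SERPINB6 and SERPINB9 are close neighbours of SERPINB1 on the rhesus genome, and SERPINB1 was not called in any comparison. SERPINB1, an inhibitor of neutrophil elastase, had its highest signals on E+3P replicate 3, at 10.34, and E+14P replicate 5, at 10.06. Squamous marker means on both arrays, 10.29 and 8.81, were the highest of all 25, and so were their neutrophil marker means, 6.88 and 6.52. The part of either list in the SERPINB1 values was not tested. SERPINB5, or maspin, a protein of epithelial cells that does not inhibit proteases, was likewise highest on E+3P replicate 3, at 10.01, with 8.87 and 8.80 on replicates 5 and 4 of E+14P. The squamous mean of E+14P replicate 4, 7.77, came next after those of the other two.

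Several other clade B genes, chosen after their values were seen, shared the maximum. They form a second run of neighbouring genes, SERPINB8, SERPINB10, SERPINB2, SERPINB7, SERPINB11, SERPINB13, SERPINB12 and SERPINB5. On E+3P replicate 3 the signal of SERPINB2, the urokinase inhibitor PAI-2, was 9.74, against 3.85 to 6.73 on the other E+3P arrays. SERPINB11 was at 9.65 there, SERPINB10 at 8.58 and SERPINB13 at 8.13. On that array each of the 3 was at least 3 log2 units above the other E+3P arrays. SERPINB8 and SERPINB12 did not share this, with 6.30 and 2.83 on E+3P replicate 3. None of these genes was called, nor was any of the 11 squamous markers, and the part of the squamous markers in these values was not tested.

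**Figure D3:**
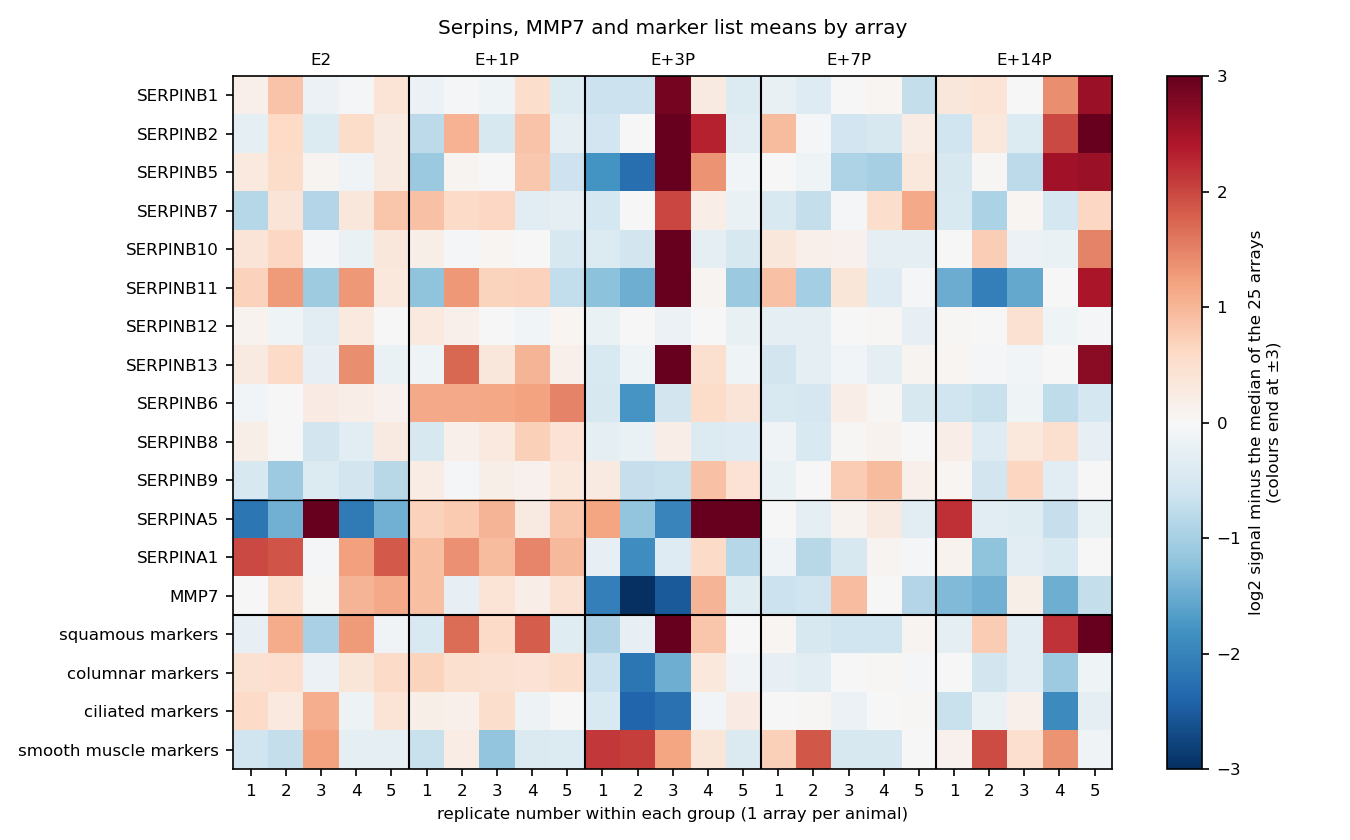
Log2 signal minus the median of all 25 arrays for clade B serpins, SERPINA5, SERPINA1, MMP7 and the mean signals of 4 marker lists, by array (columns, 5 per group); colours end at ±3. SERPINB1, SERPINB2, SERPINB5, SERPINB7, SERPINB10, SERPINB11, SERPINB13 and the squamous markers are highest on E+3P replicate 3, SERPINB6 is raised on all 5 E+1P arrays, and SERPINA5 differs between animals of E2 and E+3P.

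Among the MMPs, 4 of 20 were called on day 3, MMP7 lower and MMP3, MMP26 and MMP27 higher, and 1, MMP14, on day 14. Of all genes, 12.2% were called on day 3 (5.03% higher and 7.16% lower) and 5.79% on day 14. With so few genes to a family, nothing is read from these counts. MMP7, or matrilysin, is a small MMP made by glandular epithelium. Its signals were 4.89, 3.27, 4.44, 7.96 and 6.58 in E+3P, against 6.96, 7.44, 6.98, 7.96 and 8.09 in E2. It fell by 2.06, or 4.16-fold (SE 0.58, adjusted p = 0.0278), and 4 of 5 animals were below all of E2. The 3 lowest animals, replicates 2, 3 and 1, also had the lowest columnar marker means of their group, 5.29, 5.99 and 6.81. The difference was -0.23 with the marker means as covariates (adjusted p = 0.831) and -1.01 without the arrays that stood apart (0.280). Leaving out replicate 1, 2 or 3 of E+3P or replicate 2, 4 or 5 of E2 also ended the call, with adjusted p up to 0.0877 and a difference of -1.52 without E+3P replicate 2. MMP7 signals were 6.08 to 7.88 on day 7 and 5.48 to 7.12 on day 14, and neither was called against E2.

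MMP14, the membrane-type MMP that activates the MMP2 proenzyme and cuts collagen at the cell surface, was highest after 14 days. Its signals were 8.78, 8.92, 8.70, 8.97 and 8.81 in E+14P, against 8.16, 8.34, 7.74, 8.52 and 8.24 in E2. The groups did not overlap, and the difference was 0.63, or 1.55-fold (SE 0.15, adjusted p = 0.0183). It was 0.65 against E+1P (adjusted p = 0.0169), where signals lay between 8.09 and 8.30. On day 7 signals were 8.37 to 8.91, a difference of 0.49 that was not called (adjusted p = 0.0679). Both day 14 calls were lost without E+14P replicate 4 (adjusted p = 0.0545 against E2 and 0.0512 against E+1P). Both were kept in the other alternatives, including the squamous, columnar and smooth muscle covariates (0.54 against E2, adjusted p = 0.0305). The T and natural killer cell mean was 5.64 to 6.59 in E+14P against 4.52 to 5.44 in E2. The endometrial stroma mean was 5.42 to 5.56 against 4.85 to 5.21. The part of these 2 lists in the MMP14 result was not tested.

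The 3 MMPs called higher on day 3 had low signals. MMP3, or stromelysin 1, a broad matrix protease, was at 4.07, 4.58, 4.54, 7.06 and 4.53 in E+3P, against 3.95, 3.70, 3.80, 3.98 and 4.08 in E2, a difference of 1.06 (adjusted p = 0.0481). The value of 7.06 belonged to 1 animal, replicate 4, without which the difference was 0.53 (adjusted p = 0.0293). The call was lost without E+3P replicate 2 or any 1 of the E2 arrays (adjusted p up to 0.0950). MMP26, a second matrilysin, was at 4.47, 4.24, 4.42, 4.36 and 3.73 in E+3P, against 3.45 to 3.99 in E2, and 4 of 5 animals were above all of E2 (0.54, adjusted p = 0.0273). MMP27 was at 3.60, 4.41, 3.73, 3.45 and 3.37 in E+3P, against 2.91 to 3.16 in E2, with no overlap (0.66, adjusted p = 0.0365). Leaving out single arrays ended the MMP26 call in 6 of 10 cases (replicates 1 to 4 of E+3P, replicates 2 and 5 of E2; up to 0.0732) and the MMP27 call in 7 of 10 (replicates 2 and 3 of E+3P and each E2 array; up to 0.114). Without the arrays that stood apart, none of the 3 was called, with differences of 1.32 for MMP3 (adjusted p = 0.0617), 0.48 for MMP26 (0.139) and 0.42 for MMP27 (0.224).

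MMP3, MMP7 and MMP27 belong to 1 run of 8 neighbouring MMP genes, with MMP20, MMP8, MMP1, MMP12 and MMP13 between or beside them. The collagenases MMP1, MMP8 and MMP13, the gelatinase MMP9 and the macrophage elastase MMP12 were not called in any comparison. MMP1 was at 4.92 on E+3P replicate 4, the animal with the high MMP3 value, and between 2.93 and 3.31 on the other E+3P arrays. MMP9, the gelatinase of neutrophils and macrophages, averaged 5.24 ± 0.79 in E2, 5.38 ± 0.39 in E+1P, 5.32 ± 0.20 in E+3P, 5.44 ± 0.32 in E+7P and 5.48 ± 0.28 in E+14P, differences smaller than the spread within E2.

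MMP16, another membrane-type MMP, was called in E+3P against E+1P. Signals were 6.92, 7.40, 6.18, 5.90 and 5.21 in E+3P, against 4.91, 5.29, 5.11, 5.66 and 5.22 in E+1P, a difference of 1.09 (SE 0.28, adjusted p = 0.0287). In E2 they were 5.43 to 6.09, overlapping both groups, and MMP16 was not called against E2 at any time. Smooth muscle marker means were 9.13, 9.07, 8.17, 7.37 and 6.56 on the E+3P arrays, in the same order of replicates, and 5.81 to 7.21 in E+1P, with 3 of 10 markers called, all higher. The difference of MMP16 was 0.23 with the marker means as covariates (adjusted p = 0.764). It was 0.77 without the arrays that stood apart (adjusted p = 0.206), and the call was also lost without replicate 1 or 2 of E+3P or replicate 1, 3 or 5 of E+1P (up to 0.0953).

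Of the other membrane-type MMPs, MMP15, MMP24 and MMP25 were not called, and their differences from E2 were at most 0.25 in size. MMP23, MMP19 and MMP21 were not called either.

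**Figure D4:**
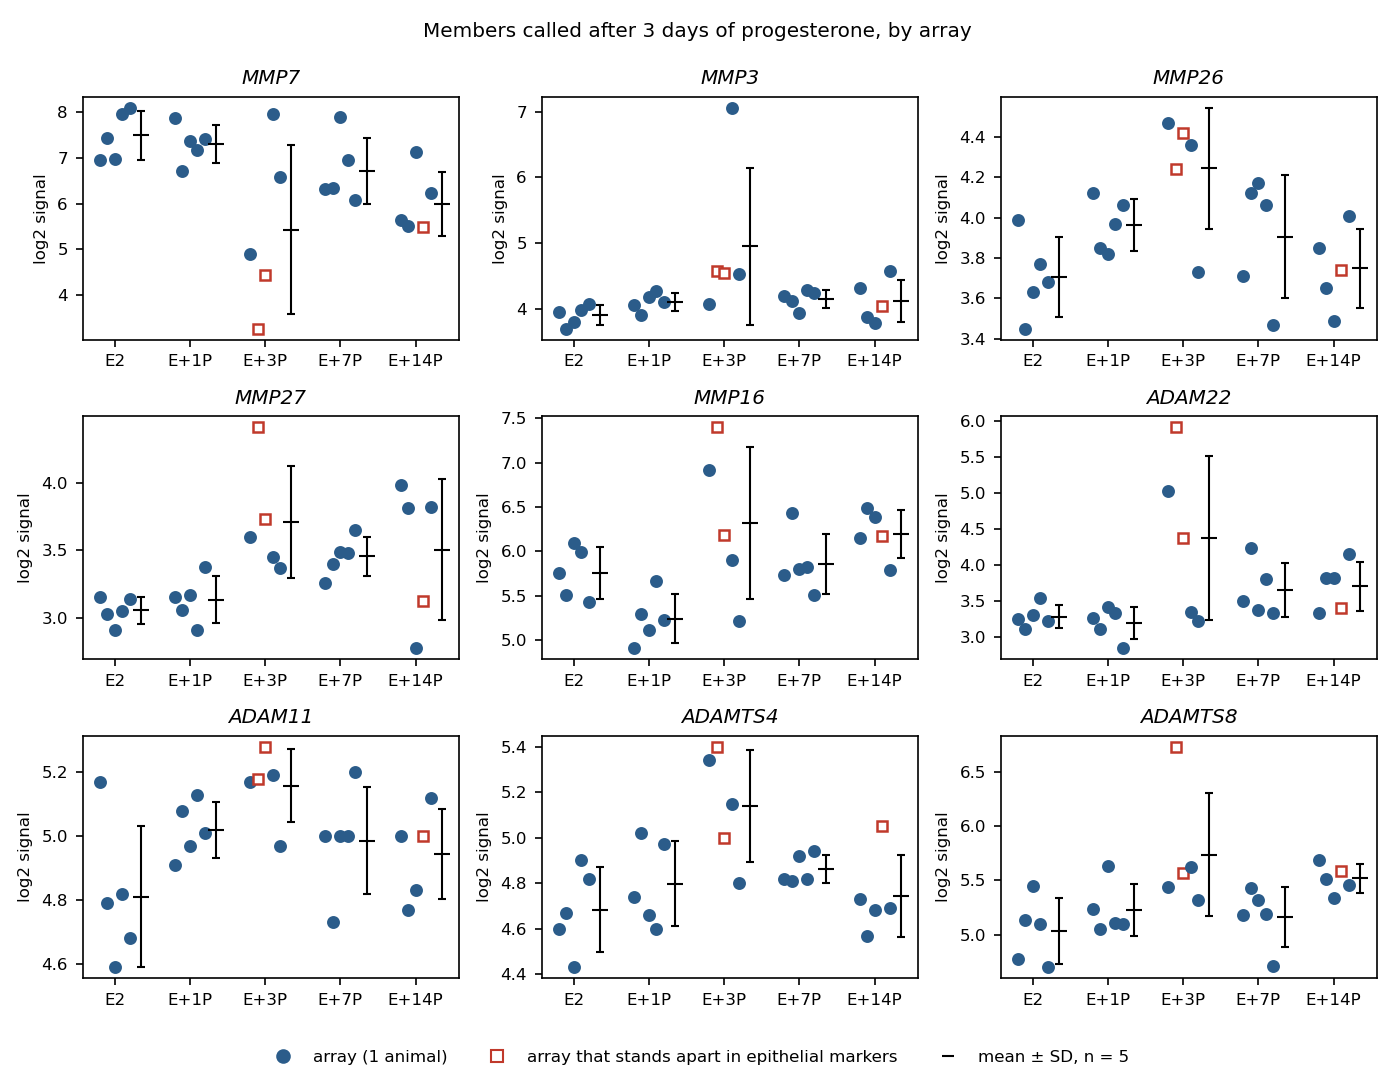
Log2 signal on each array (filled circles, 1 animal each; open squares, arrays that stood apart in epithelial markers) with group mean and SD (n = 5) for the 8 genes called in E+3P against E2 other than SERPINA1 and ADAM28, and for MMP16, called in E+3P against E+1P. In E+3P the values of MMP7 run from 3.27 to 7.96, and the highest ADAM22 and MMP27 values are on an array that stood apart.

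Of the 16 ADAMs, 1 was called on day 1 and 3 on day 3, beside 3.55% and 12.2% of all genes. ADAM28 was called at both times. It is a protease of lymphocytes and epithelia whose known substrates include the growth factor binding protein IGFBP3. Its signals were 5.45, 5.07, 5.43, 5.28 and 4.86 in E+1P, against 6.65, 6.10, 6.19, 6.51 and 6.44 in E2. The groups did not overlap, and ADAM28 fell by 1.16, or 2.24-fold (SE 0.28, adjusted p = 0.0274). In E+3P it was at 5.69, 4.75, 4.87, 5.79 and 5.98, again below all of E2, by 0.96 (adjusted p = 0.0335).

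By day 7 the order had turned. Signals of ADAM28 were 6.38, 6.47, 6.94, 6.83 and 7.40 in E+7P, all above E+1P, with a difference of 1.59 (SE 0.28, adjusted p = 0.00245), and 0.43 above E2 on average, which was not called. In E+14P they were 6.10, 6.33, 6.82, 5.03 and 6.71, and the low value was on replicate 4, an array that stood apart. Leaving out replicate 2, 4 or 5 of E+1P or replicate 1, 4 or 5 of E2 ended the day 1 call against E2 (adjusted p up to 0.0816), with a difference of -1.25 under the marker covariates (0.00162). The day 3 difference was -0.21 with those covariates (adjusted p = 0.718) and -0.55 without the arrays that stood apart (0.132). The day 3 call was also lost without replicate 2 or 3 of E+3P or replicate 1, 4 or 5 of E2, with adjusted p up to 0.0991.

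The 2 other ADAMs called lack a working protease. ADAM22, known in brain as a receptor of LGI proteins, was at 5.02, 5.91, 4.38, 3.35 and 3.22 in E+3P, against 3.11 to 3.54 in E2 and 2.85 to 3.42 in E+1P. Thus 3 animals were well above both groups and 2 were within the E2 range. The difference was 1.09 from E2 (SE 0.34, adjusted p = 0.0435) and 1.18 from E+1P (0.0490). Within E+3P the 3 high animals had the highest smooth muscle means, 9.13, 9.07 and 8.17. In other groups, E2 replicate 3 and replicates 2 and 4 of E+14P had smooth muscle means of 8.21, 8.95 and 8.34 with ADAM22 at 3.31, 3.82 and 3.40. The difference of E+3P from E2 was 0.22 with the marker covariates (adjusted p = 0.770) and 0.71 without E+3P replicate 2 (0.127). ADAM11 was at 5.17, 5.18, 5.28, 5.19 and 4.97 in E+3P, against 5.17, 4.79, 4.59, 4.82 and 4.68 in E2, a difference of 0.35 (adjusted p = 0.0451). Its probe set held a repeated value, 5, on replicates 1, 3 and 4 of E+7P and replicates 1 and 4 of E+14P, for an unknown reason. Each of these calls was lost in 8 of 10 fits that left out 1 array: ADAM22 against E2 without replicates 1 to 3 of E+3P or any E2 array (up to 0.127), ADAM22 against E+1P without replicates 1 to 3 of E+3P or any E+1P array (up to 0.145), and ADAM11 without replicates 1 to 4 of E+3P or replicates 2 to 5 of E2 (up to 0.105). Without the arrays that stood apart, the differences from E2 were 0.58 for ADAM22 (adjusted p = 0.283) and 0.30 for ADAM11 (0.197). The difference of ADAM22 from E+1P in that fit is not given here.

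The main sheddases were not called in any comparison. ADAM10, which releases Notch and cadherin ectodomains, averaged between 8.71 and 8.88 in the progesterone groups, against 8.75 ± 0.23 in E2. ADAM9 averaged between 8.38 and 8.57 in these groups, against 8.43 ± 0.18 in E2. ADAM17, the TNF-releasing sheddase, chosen after its values were seen, averaged between 6.37 and 6.77 in the progesterone groups, against 6.61 in E2. ADAM15 was not called either.

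ADAMTS5, an aggrecan- and versican-cutting enzyme, was low on day 1 and high afterwards. Its E+1P signals were 5.64, 5.84, 5.49, 5.45 and 5.54 and lay close together, whereas those of E2 were 5.53, 5.54, 7.43, 6.15 and 6.53. In E+3P they were 8.09, 7.57, 6.08, 6.72 and 6.65, all above E+1P, with a difference of 1.43 (SE 0.36, adjusted p = 0.0245). The E+7P animals, at 7.57, 7.64, 7.03, 6.69 and 7.64, were above E+1P by 1.72 (adjusted p = 0.00971). Those of E+14P, at 6.47, 7.66, 7.66, 6.54 and 7.00, were above it by 1.47 (adjusted p = 0.0220).

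Against E2, with all arrays, ADAMTS5 was not called at any time, with differences of -0.64, 0.79, 1.08 and 0.83 in order of time (adjusted p from 0.0955 to 0.466). E2 replicate 3 held the highest E2 value and overlapped the later groups. Without that array ADAMTS5 was called higher than E2 in E+3P (1.08, adjusted p = 0.0468) and in E+7P (1.38, 0.0209). The array was picked for its high ADAMTS5 value, and its removal lowers the E2 mean. Nothing is read from these calls without it. The day 7 difference from E+1P was 1.27 with the marker covariates (adjusted p = 0.0136) and kept its call in every alternative, including each left-out array. On day 3 the difference from E+1P was 0.94 with the covariates (adjusted p = 0.224) and 1.56 without the arrays that stood apart (0.0531), and its call was lost without replicate 1 or 2 of E+3P or replicate 1, 3 or 4 of E+1P (up to 0.0780). On day 14 it was lost without replicate 2 or 3 of E+14P or replicate 3, 4 or 5 of E+1P (up to 0.0666), and the difference under the covariates was 1.10 (0.0554).

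Its neighbour ADAMTS1, which also cuts versican, was not called in any comparison. Signals were 6.08, 6.41, 8.42, 6.30 and 6.60 in E2, with the high value again on replicate 3. They were 5.26 to 6.11 in E+1P, 5.75 to 7.77 in E+3P, 6.02 to 7.07 in E+7P and 5.96 to 6.86 in E+14P. The difference was -1.12 in E+1P against E2 (adjusted p = 0.145), and -0.71 without E2 replicate 3 (0.334). On days 3, 7 and 14 the differences from E2 were 0.19, -0.11 and -0.32. ADAMTS9, a versican protease of endothelium and stroma, had signals of 6.14, 6.47, 5.43, 6.32 and 6.44 in E+1P, against 7.11, 6.94, 6.95, 7.27 and 6.86 in E2. These 2 groups did not overlap, nor did their fibroblast marker means, but the difference of -0.87 was not called (adjusted p = 0.0824). It was called in E+14P against E+1P, with signals of 6.73 to 7.75 and a difference of 1.02 (SE 0.26, adjusted p = 0.0282), and not without replicate 2 or 4 of E+14P or replicate 1 or 3 of E+1P (up to 0.0950). Without the arrays that stood apart that difference was 0.88 (adjusted p = 0.0748), and with the marker covariates it was 0.66 (0.211).

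Of the 7 proteoglycan-cutting ADAMTS genes, 2 were called on day 3 against E2, both higher, beside 12.2% of all genes (5.03% higher). ADAMTS4, an aggrecanase, was at 5.34, 5.40, 5.00, 5.15 and 4.8 in E+3P, against 4.60, 4.67, 4.43, 4.90 and 4.82 in E2 (0.45, adjusted p = 0.0247). ADAMTS8 was at 5.44, 6.73, 5.57, 5.62 and 5.32 in E+3P, against 4.78, 5.14, 5.45, 5.10 and 4.70 in E2 (0.70, adjusted p = 0.0339). Its highest value was on E+3P replicate 2, the array with the high endothelial mean, and 3 of 9 endothelial markers, TEK, TIE1 and VWF, were called higher in E+3P than in E2. Their part in the day 3 results was not tested. Without that array the difference was 0.45 (adjusted p = 0.0886). The ADAMTS8 call was also lost without replicate 1, 2, 4 or 5 of E2, and that of ADAMTS4 without replicate 1 or 2 of E+3P or replicate 1 or 3 of E2 (up to 0.0731). Without the arrays that stood apart neither was called, at 0.41 for ADAMTS4 (adjusted p = 0.0823) and 0.42 for ADAMTS8 (0.178), and ADAMTS8 was at 0.24 with the marker covariates (0.583). None of the 3 procollagen-processing ADAMTS genes, the 8 other ADAMTS genes or the 4 ADAMTS-like genes was called. ADAMTS19, which had the highest mean of the uncalled members of these groups, averaged 5.95 ± 0.67 in E+7P against 6.81 ± 0.75 in E2, with overlapping animals.

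Across consecutive times, the calls lay between days 1 and 3. In E+3P against E+1P, 6 of 86 genes were called (6.98%; 3 higher and 3 lower), against 5.89% of all genes (1.76% higher and 4.13% lower). In E+7P against E+3P, limma called 0 of the 86, against 0.00644% of all genes, while 10 had an unadjusted p under 0.05. In E+14P against E+7P it called 0 of the 86 and 0% of all genes, and 3 of the 86 had an unadjusted p under 0.05. Of the added comparisons, E+7P against E+1P called 5 genes (5.81%; 2 higher and 3 lower), against 3.52% of all genes (1.29% and 2.23%), and E+14P against E+1P called 7 (8.14%; 4 higher and 3 lower), against 4.76% (1.8% and 2.96%). The comparisons with E2 share the E2 animals and those with E+1P share the E+1P animals, so their values are not independent of each other.

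Most of the 86 genes were not called, and the median differences from E2 were small and positive. They were 0.06, 0.19, 0.09 and 0.11 after 1, 3, 7 and 14 days, beside 0.00, 0.05, 0.02 and 0.03 for all genes. On day 3, 66 of the 86 had a positive difference, 61 did under quantile normalization and 58 with arrays centred on their medians. The median of all genes on that day was 0.049, 0.036 and -0.003 in the same order. The share of all genes with a positive difference is not given here, so these counts are not read as particular to the 86. The day 3 calls rested on a spread pooled over the 5 groups, and the E+3P animals differed widely, with an SD of the columnar marker mean of 1.00 against 0.09 to 0.43 in the other groups. When limma was given the E+3P and E2 arrays only, it called 0 of the 86. Without the 3 arrays that stood apart 3 were, SERPINA1 with SERPINA5 and SERPINB9, and with the marker covariates 2 were, MMP3 and SERPINB9. Shares of all genes under these settings are not given here, so the lower counts are not read as particular to the 86.

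Inhibitors, partner proteases and substrates of these families were counted in 6 lists. Their shares stand beside 3.55%, 12.2%, 5.85% and 5.79% of all genes called against E2 on days 1, 3, 7 and 14, and with few genes to a list nothing is read from the excess or lack of 1 or 2 calls. Of 12 metalloproteinase inhibitors measured, 0 were called on day 1, 3 (25%) on day 3 (1 higher and 2 lower), 3 on day 7 (1 higher and 2 lower) and 4 (33.3%) on day 14 (2 higher and 2 lower). Beside TFPI2, described below, the other inhibitor called lower on day 3 is not named here. TIMP1 and TIMP2, 2 of the tissue inhibitors of metalloproteinases, moved in opposite directions. On day 7 TIMP1 averaged 9.41 ± 0.35 in E+7P against 10.53 ± 0.53 in E2 (-1.13, adjusted p = 0.0214), and on day 14 9.40 ± 0.43 in E+14P (-1.13, adjusted p = 0.0232). TIMP2, which also takes part in MMP2 activation by MMP14, averaged 9.65 ± 0.33 in E+7P against 8.57 ± 0.30 in E2 (1.07, adjusted p = 0.0192) and 9.67 ± 0.18 in E+14P (1.10, adjusted p = 0.0180). On day 7 the TIMP1 call ended without replicate 5 of E+7P or replicate 2, 4 or 5 of E2 (up to 0.0736), and that of TIMP2 without replicate 2 or 4 of E+7P (up to 0.0512). On day 14 the TIMP1 call ended without replicate 4 or 5 of E+14P or replicate 1, 2, 4 or 5 of E2 (up to 0.0675), and that of TIMP2 without E+14P replicate 4 (0.0531). Both day 14 calls also ended with the marker covariates (TIMP1 -1.02, adjusted p = 0.0869; TIMP2 0.82, 0.0804).

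TFPI2, a Kunitz-type inhibitor of plasmin and other serine proteases, was lower than E2 from day 3 on. It averaged 5.92 ± 0.58 in E+3P, 5.85 ± 0.35 in E+7P and 5.93 ± 0.43 in E+14P, against 6.87 ± 0.21 in E2, with all animals of each group below all of E2 (adjusted p = 0.0159, 0.0160 and 0.0289 in order of time). On day 1 it averaged 7.46 ± 0.33, and the later groups were below E+1P by 1.53 to 1.60, calls kept in every alternative. The day 7 call of TFPI2 against E2 ended without E+7P replicate 4 (0.0503), and the day 14 call without replicate 1 or 5 of E+14P or replicate 1, 2 or 3 of E2 (up to 0.0858). SPOCK1, a matrix proteoglycan with a protease inhibitor domain, was called higher on day 3 (0.94, adjusted p = 0.00483) and day 14 (0.76, adjusted p = 0.0282). The day 14 call ended without replicate 2, 3 or 4 of E+14P or replicate 2, 4 or 5 of E2 (up to 0.0834).

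Few of the partner proteases were called. Of 22 plasminogen and kallikrein system genes, only PLGRKT, a plasminogen receptor, was called against E2, on day 3 (-0.61, adjusted p = 0.0292). Of 9 astacins and proprotein convertases, TLL1 was called higher on day 3 (0.66, adjusted p = 0.0135) and day 7 (0.58, adjusted p = 0.0443), and PCSK6 on day 3 (0.39, adjusted p = 0.0461). Of 13 leukocyte and lysosomal proteases, CTSK, the collagen-cutting cathepsin K, was called higher on day 7 (9.10 ± 0.26 in E+7P against 8.27 ± 0.44 in E2, adjusted p = 0.0452) and day 14 (9.26 ± 0.12 in E+14P, adjusted p = 0.0176). The CTSK call ended on day 7 without any E+7P array or replicate 1, 3 or 5 of E2 (up to 0.121), and on day 14 without E2 replicate 1 (0.0583) or with the marker covariates (0.75, 0.106). That of TLL1 on day 7 ended without any of replicates 1, 2, 4 and 5 of each group (up to 0.120), under both other scalings, with the marker covariates and in a fit of the 2 groups.

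Among 22 proteoglycan and elastic fibre genes, 3 were called on day 1 (13.6%). VCAN, the core protein of versican, averaged 5.25 ± 0.62 in E+1P against 7.27 ± 0.49 in E2 (-2.03, adjusted p = 0.0143). HAS2, a hyaluronan synthase, averaged 3.69 ± 0.34 in E+1P against 4.75 ± 0.38 in E2 (-1.06, adjusted p = 0.0276). CD44, the hyaluronan receptor, averaged 9.90 ± 0.16 in E+1P against 8.71 ± 0.39 in E2 (1.19, adjusted p = 0.0217). In each of these 3 genes the groups did not overlap, and the fibroblast marker means of the same groups did not overlap either, being lower in E+1P, and their part was not tested. The VCAN call was kept in every alternative. That of HAS2 ended without replicate 3 or 5 of E+1P or replicate 1 of E2 (up to 0.0876), and that of CD44 without replicate 3 or 4 of E+1P or replicate 1, 2, 4 or 5 of E2 (up to 0.0604). On day 3 the 3 called genes were others, ELN, which encodes elastin (0.77, adjusted p = 0.00625), THBS2 (1.47, adjusted p = 0.00563) and ACAN (0.42, adjusted p = 0.0328), all higher. HAS2 was called again on day 7, lower, and THBS2 on day 14, higher. The HAS2 call on day 7 ended on leaving out any of the 10 arrays but E+7P replicate 2 (up to 0.120). The THBS2 call on day 14 ended without any of replicates 2 to 5 of E+14P or replicates 1, 2, 4 and 5 of E2 (up to 0.108), under quantile normalization and with the marker covariates.

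Of 21 ligands and receptors that ADAM proteases release, 5 (23.8%) were called on day 3, beside 12.2% of all genes, and 0 at the other times against E2. NOTCH1 (0.51, adjusted p = 0.00754), NOTCH3 (0.38, adjusted p = 0.0216), HBEGF (0.64, adjusted p = 0.0208) and L1CAM (0.78, adjusted p = 0.0228) were higher, and NRG1 was lower (-1.04, adjusted p = 0.0364). Most of the day 3 calls of the 6 lists ended without the arrays that stood apart, in a fit with fewer samples. SPOCK1 (0.96, adjusted p = 0.0246) and ELN (0.61, 0.0443) were still called then and the other 12 genes were not, while BGN, the proteoglycan biglycan, was newly called, lower. With the marker covariates only SPOCK1 of the 14 kept its call (0.90, 0.0196), and VCAN, BGN, LUM and LTBP1 were newly called, all lower. Leaving out E+3P replicate 2 by itself ended the calls of ACAN, HBEGF, L1CAM, NOTCH3, NRG1, PCSK6 and PLGRKT, and those of ACAN, HBEGF, NOTCH3, NRG1, PCSK6 and PLGRKT also ended without other single arrays (up to 0.110). On day 14, SPOCK1 was the only one of the 6 genes called to lose its call without E+14P replicate 4, E+3P replicate 2 and E+3P replicate 3 together (0.0603). Median differences of the 6 lists on day 3 lay between 0.06 and 0.35, beside 0.05 for all genes.

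**Figure D5:**
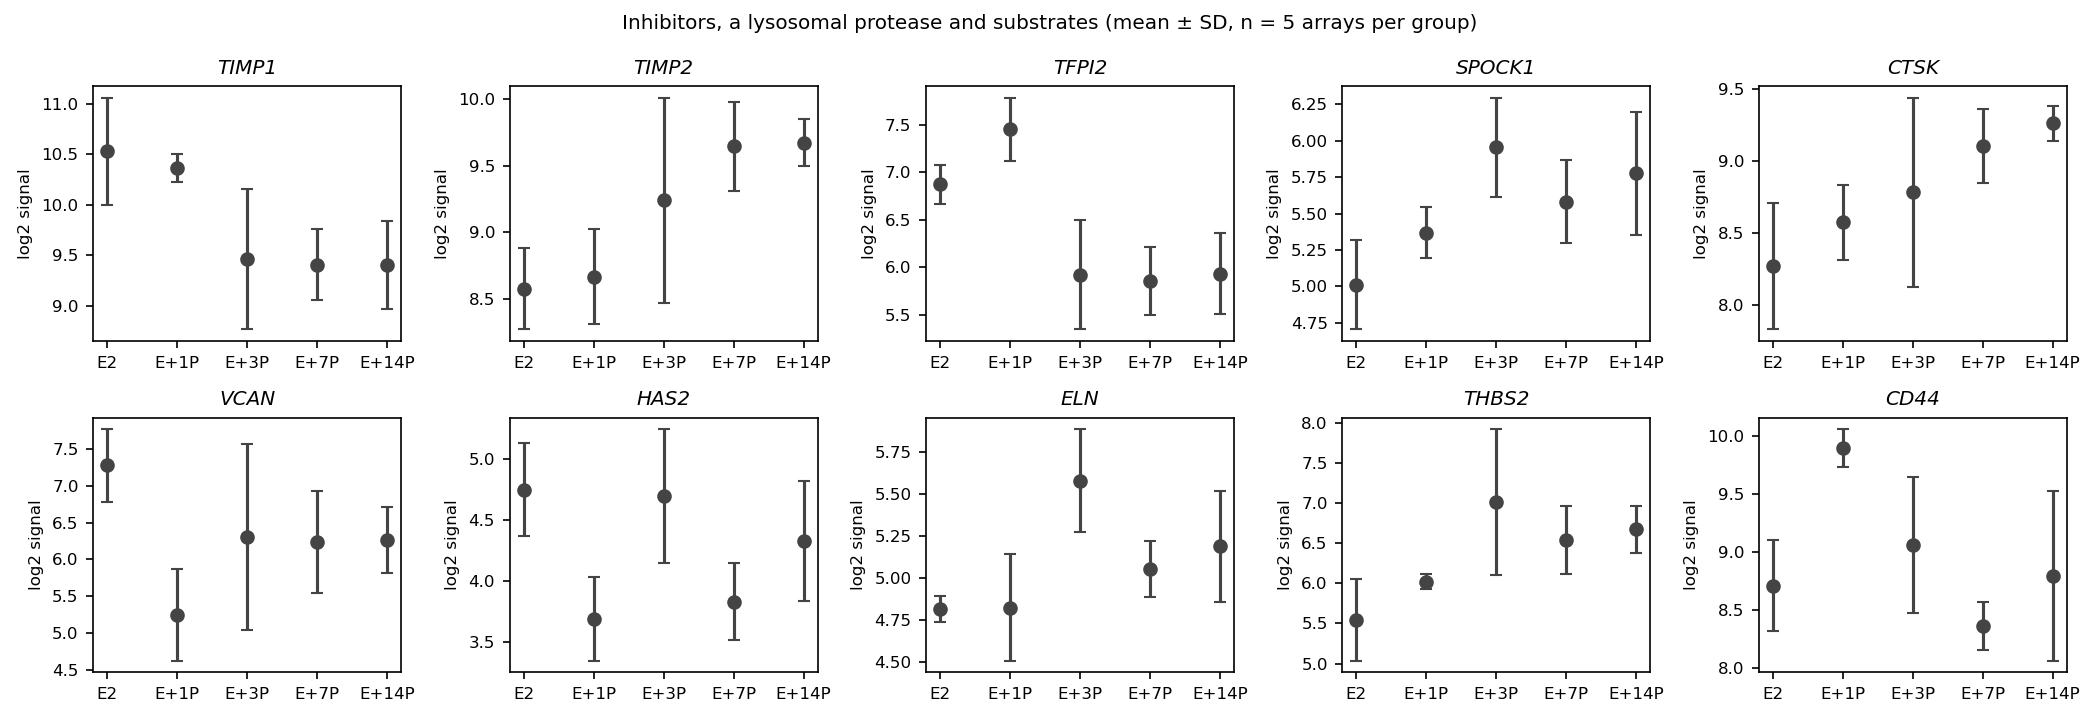
Mean log2 signal and SD (n = 5 arrays) of 10 inhibitor, protease and substrate genes in the 5 groups. TIMP1 and TFPI2 are lower and TIMP2 and CTSK higher in E+7P and E+14P, while VCAN and HAS2 are lowest and CD44 highest in E+1P.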

How the data were processed

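Frozen whole cervix from 25 animals was profiled, 1 array per animal. Per the labels' protocols, RNA was extracted with Trizol and RNeasy columns, amplified and biotin-labelled with NuGEN kits and hybridised to Affymetrix rhesus gene arrays. The deposited values are log2 signals per probe set, made by the authors with Affymetrix Expression Console, per the submitters' processing notes. The sources used here state neither its version nor its summarization and normalization. The sorted values of an array differed from their mean over arrays by at most 0.29, and nothing further was done to them.

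Genes were named from GEO's platform annotation: of 40489 probe sets, 16020 had 1 gene symbol, 490 had several and 23979 had none, and probe sets with several or none were not named. All 86 genes matched the rhesus RefSeq annotation, 82 by gene ID and 4 by symbol, and this was used for gene order only. All 25 arrays were fitted in limma 3.58.1 (R 4.3.3) with 1 coefficient per group, 20 residual degrees of freedom and a variance trend. Tests were 2-sided, with Benjamini-Hochberg adjustment over all probe sets and a threshold of 0.05. The fit was tested on simulated data.

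The genes, role groups, partner and marker lists were chosen with earlier results of these data known, and the comparisons of E+7P and E+14P with E+1P after values were seen. Named were all genes called in a comparison, up to 3 uncalled genes with the highest mean per role group, and called partner genes but for 1 inhibitor. Arrays more than 4 scaled median absolute deviations from the median in a columnar, ciliated or squamous marker mean were said to stand apart. Replicate numbers follow deposit order. The labels give no batch, and each animal is taken as an independent sample. Alternatives were quantile normalization, median centring, a filter on low signals, no variance trend, array weights, 3 marker means as covariates, the 2 compared groups alone, arrays left out, and the second probe set.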

Additional observations from a re-analysis of the deposited data

Results flagged for a closer look

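Of 430 groups of 5 arrays (86 genes in 5 groups), 33 held an array far from the other 4 by Dixon's test, where chance gives about 1 in 20, and in 16 the gap was at least 1 log2 unit. E+3P replicate 3 held 5 of them, all clade B serpins: SERPINB1 at 10.34, SERPINB10 at 8.58, SERPINB11 at 9.65, SERPINB13 at 8.13 and SERPINB7 at 5.74. E2 replicate 3 also held 5: SERPINA5 at 10.43, ADAMTS1 at 8.42, SERPINE2 at 8.39, ADAMTSL4 at 6.29 and MMP23 at 6.18. E2 replicate 4 held 4: ADAM15 at 6.47, ADAM33 at 5.5, ADAMTS15 at 4.73 and ADAMTS16 at 4.43.

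The remaining arrays each held fewer. In E+3P they were replicate 4 for MMP3 (7.06) and MMP1 (4.92) and replicate 2 for ADAMTS8 (6.73) and SERPINI1 (5.81). In E2 they were SERPINA12 on replicate 1 (3.08) and ADAM21 on replicate 2 (3.48). In E+1P they were ADAM10 (9.10) and MMP19 (5.37) on replicate 3, ADAM2 (4.89) and SERPINF2 (6.36) on replicate 4, and ADAMTS19 (7.03) and SERPINB6 (10.22) on replicate 5. In E+7P they were ADAMTS16 on replicate 2 (3.85), ADAM2 on replicate 4 (5.65) and SERPING1 on replicate 5 (10.42). In E+14P they were SERPINA5 on replicate 1 (9.15), ADAMTS15 on replicate 2 (4.98), SERPINB12 on replicate 3 (3.47) and SERPINB13 on replicate 5 (5.68).

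For 6 genes (6.98% of the 86, beside 5.89% of all genes) limma called E+3P against E+1P, so their differences from E2 were unlike at these times. These are the calls of that comparison described above, where the alternatives that ended some of them are given. The difference between them was 1.18 for ADAM22, 1.43 for ADAMTS5, 1.09 for MMP16, -1.69 for SERPINA1, -1.60 for SERPINB6 and -1.61 for SERPINF2.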

How the results depend on the processing

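No called gene changed direction in any alternative. Of all 86, up to 11 changed sign under a scaling (E+3P against E+1P, median centring), with differences of at most 0.0449 in size. Counts of called genes moved by over 1.5 times as follows. For E+1P against E2 (3 called), array weights, the 3 marker covariates and a fit of these 2 groups each gave 5. For E+3P against E2 (10), quantile normalization gave 5, median centring 6, a filter at the 40th percentile of mean signal 6, the covariates 2, leaving out the arrays that stood apart 3 and a fit of the 2 groups 0. For E+7P against E2 (3), array weights gave 5. For E+14P against E2 (3), the covariates gave 6. For E+3P against E+1P (6), the covariates gave 1, leaving out the arrays that stood apart 3 and a fit of the 2 groups 1. For E+7P against E+1P (5), array weights and a fit of the 2 groups each gave 9. For E+14P against E+1P (7), the covariates gave 4, and array weights gave 11 for the F test (7). The cause was not tested. Shares of all genes under the alternatives are not given here, so no change in a count is read as particular to the 86 genes. Leaving out 1 array at a time gave 1 to 3 for E+1P against E2, 2 to 14 for E+3P, 1 to 4 for E+7P and 1 to 3 for E+14P. It gave 3 to 11 for E+3P against E+1P, 0 to 1 for E+7P against E+3P, 0 to 0 for E+14P against E+7P, 4 to 4 for E+7P against E+1P, 4 to 7 for E+14P against E+1P and 7 to 15 for the F test. The calls of SERPINF2, SERPINA1 on days 7 and 14 against E2, SERPINB6 on days 7 and 14 against E+1P, and ADAM28 and ADAMTS5 on day 7 against E+1P were kept in all alternatives. Taking the second probe set changed nothing. No paired analysis was possible, because each array came from a different animal and the labels give no pairing of animals. Signal over background is not known for these arrays, which limits what can be said of genes with low signals such as MMP26, MMP27 and ADAM22.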
